A study of Homo sapiens with 8 samples.

Results

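Sorafenib was added on top of dipyridamole in SK-Hep1 cells, and the resulting messenger RNA profiles were set against those of cells given dipyridamole alone. This comparison takes 4 of the 8 libraries of the study, namely both drugs and dipyridamole alone, each in mock control cells and in cells with ectopic expression of SLC29A2. The other 4 libraries, sorafenib alone and the control treatment in the same 2 cell types, were used to estimate the spread and to ask whether the response to sorafenib differed where dipyridamole was absent. Each condition had 1 library and no condition had a replicate. SK-Hep1 is an established cell line from a human liver tumour that is often described as endothelial-like. The labels give no dose or duration for either drug and no order in which the drugs were given. They do not say whether the SLC29A2-expressing cells were a clone or a pool. The control treatment is named only as control.

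Sorafenib is an inhibitor of several kinases. It binds RAF kinases, which act upstream of MEK and ERK, and receptors for vascular endothelial and platelet-derived growth factors. Active ERK induces a first wave of immediate-early transcription factors and a set of feedback inhibitors, so the messages of both groups are commonly read as the output of that pathway. Dipyridamole blocks the equilibrative nucleoside transporters, of which SLC29A2 encodes a member, and inhibits cyclic nucleotide phosphodiesterases. The question addressed here is what sorafenib changed in cells that also received dipyridamole.

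Each library has 1 FPKM value per gene, a read count divided by gene length and library size. In what follows a pair of values gives mock cells first and SLC29A2 cells second. Log2 differences are both drugs minus dipyridamole alone on the log2(FPKM + 1) scale, averaged over the 2 cell types and given with a standard error from limma. The scale understates the change of genes with low FPKM. A gene is called where its limma p-value, adjusted by the Benjamini-Hochberg method over 14190 tested genes, lay under 0.05. Rose and fell are used for called genes. The p-values measure only the spread of the sorafenib response between the 2 cell types in these libraries, not a spread between replicates.

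The 4 libraries held 14.97 and 16.50 M reads with both drugs, against 14.07 and 16.19 M reads with dipyridamole alone. SLC29A2 itself, the gene that distinguishes the cell types, had 7.74 and 2025 FPKM with both drugs and 7.59 and 2054 FPKM with dipyridamole alone, so the levels fit the labels. In mock cells the share of reads from non-coding genes was 2.68% with both drugs and 2.48% with dipyridamole alone, above the 1.79% and 1.93% of SLC29A2 cells and the 1.6% to 1.86% of the libraries without dipyridamole. Transcripts of the mitochondrial genome took 1.88% and 2.25% of reads with both drugs and 5.74% and 4.05% with dipyridamole alone, and 3.04% to 4.54% in the libraries without dipyridamole. Of 8 hepatocyte markers only SERPINA1 reached 1 FPKM in any of the 8 libraries, and ALB, the albumin gene, did not exceed 0.111 FPKM. Of 10 endothelial markers ENG and TIE1 passed the filter on low values. VWF was at 1.54 and 1.66 FPKM with both drugs and 0.487 and 0.231 FPKM with dipyridamole alone. PECAM1 and CDH5 stayed at or below 0.259 FPKM. Vimentin message (VIM) was at 539 and 514 FPKM with both drugs and 580 and 563 FPKM with dipyridamole alone. Leukocyte markers summed to 2.92 and 2.58 FPKM with both drugs and 0.864 and 0.456 FPKM with dipyridamole alone, and CD3E was at 0 in every library. Epithelial markers summed to 734 and 1076 FPKM with both drugs and 792 and 1005 FPKM with dipyridamole alone, and mesenchymal markers to 2248 and 2123 FPKM with both drugs and 2564 and 2171 FPKM with dipyridamole alone.

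In all, 3464 of the 14190 genes rose when sorafenib was added, which is 24.4% of those tested, and 1249 fell, which is 8.8%. Every called gene had the same sign in both cell types, which the test largely fixes, since a call is made on the mean over the cell types. The change was at least 2-fold for 435 of the genes that rose and for 235 of those that fell. The median log2 difference over all genes was 0.153 and not 0, and scaling the FPKM by size factors moved it to -0.014. That scaling turned the balance of calls: 1738 genes rose and 2215 fell, so that 44% of calls were rises, against 73.5% on the deposited scale. Of the calls on the deposited scale, 2987 were shared in direction, and among them were all 1249 falls. With a single library left out, rises numbered 2697 (without the mock library with sorafenib alone) to 3696 (without the SLC29A2 library with dipyridamole alone). Falls numbered 998 to 1825, the highest without the mock library with both drugs, and 2502 calls were kept in all 8 omissions. In a model with cell type and the 4 treatments as terms 1192 genes rose and 404 fell. With no cell type term 1304 rose and 452 fell, and with no filter on low values 1269 rose and 461 fell.

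**Figure D1:**
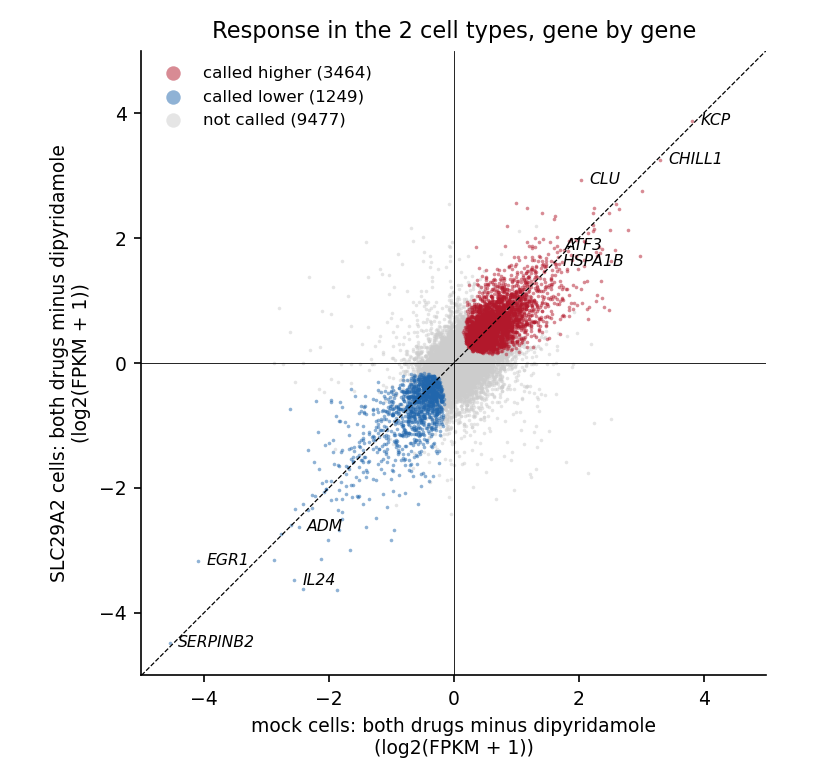
Log2 differences between both drugs and dipyridamole alone in mock cells (horizontal axis) and SLC29A2 cells (vertical axis), both as log2(FPKM + 1); each point is 1 of 14190 genes, red and blue points are the 3464 and 1249 called genes, and the dashed line marks equal responses. Called genes lie in the upper right and lower left corners, with SERPINB2 and KCP at the ends of the cloud.

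The plot of the 2 cell types shows how far single library pairs matched each other. When both drugs were set against dipyridamole alone in mock cells, 654 genes were at least 2-fold higher and 266 at least 2-fold lower. In SLC29A2 cells the counts were 541 higher and 391 lower. Of these, 264 genes were higher and 150 lower by that margin in both cell types, and 22 were past it in opposite directions. Across genes, which are not independent replicates, the log2 differences of the 2 cell types correlated with a Pearson r of 0.66.

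By class, 25.9% of 11724 protein-coding genes rose and 9.01% fell. Among 1392 long non-coding genes 17.7% rose and 6.9% fell. Small RNA genes went the other way, with 9.56% of 387 rising and 17.3% falling. These are reads at small RNA loci in poly(A)-selected libraries, where many such loci lie inside the introns or exons of longer host genes.

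The 12 largest falls and rises are given for protein-coding and long non-coding genes; among small RNA loci, MIR221 also differed by -3.01. SERPINB2, which encodes an inhibitor of plasminogen activators, had 5.89 and 7.55 FPKM with both drugs, against 161 and 190 FPKM with dipyridamole alone. Its log2 difference was -4.51 ± 0.10 (SE; limma adjusted p = 2.72e-05). EGR1, the growth-factor-induced zinc finger transcription factor, stood at 0.937 and 3.38 FPKM with both drugs and at 31.9 and 38.4 FPKM with dipyridamole alone (-3.63 ± 0.27; limma adjusted p = 0.000939). In both genes the libraries of the 2 treatments were far apart and did not overlap. Such separation, here and in the genes below, is largely fixed by naming called genes with large changes or small p-values.

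The cytokine gene IL24 was at 54.1 and 22 FPKM with both drugs, against 323 and 254 FPKM with dipyridamole alone (-3.01 ± 0.20; limma adjusted p = 0.000676). ANGPTL4 encodes an inhibitor of lipoprotein lipase and read 10.1 and 9.39 FPKM with both drugs, against 74.2 and 68.5 FPKM with dipyridamole alone (-2.75 ± 0.09). The falls of IL24 were unequal, by 2.55 in mock cells and 3.48 in SLC29A2 cells on the log2 scale, while those of ANGPTL4 were nearly the same, 2.76 and 2.74. IER3, an early-response gene, had 56.7 and 22.6 FPKM with both drugs and 251 and 206 FPKM with dipyridamole alone (-2.63 ± 0.21). PLAT, the gene of tissue plasminogen activator, was at 125 and 118 FPKM with both drugs and at 764 and 725 FPKM with dipyridamole alone (-2.61 ± 0.08). ADM, which encodes the vasodilator peptide adrenomedullin, had 48.2 and 37.3 FPKM with both drugs, against 273 and 237 FPKM with dipyridamole alone (-2.56 ± 0.08). PLAT and ADM were abundant messages, and the libraries of the 2 treatments lay far apart in each cell type.

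The remaining genes of the 12 largest falls were C11orf91 (-3.01), CCN2 (-2.44), the interleukin gene IL1A (-2.43), the chemokine gene CCL3L3 (-2.34) and MIR222HG, the host transcript of 2 microRNAs (-2.32). CCL3L3 has near-identical copies between which reads can be split, so its value is uncertain. The adjusted p-values of all 12 ran from 2.72e-05 to 0.00307, and each call was kept with any single library left out.

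The largest rises were led by KCP, which encodes a secreted protein that modulates BMP signalling. KCP had 130 and 98.4 FPKM with both drugs, against 8.3 and 5.73 FPKM with dipyridamole alone (3.85 ± 0.13; limma adjusted p = 9.43e-05). KCP lies on GRCh38 chromosome 7, 128862451 to 128910719, minus strand. It overlaps ATP6V1F and ATP6V1FNB on the plus strand, and because no strand information is stated, reads there cannot be assigned to 1 strand. ATP6V1FNB had 16.5 and 13.4 FPKM with both drugs and 1.82 and 1.63 FPKM with dipyridamole alone (2.55 ± 0.18). The 2 overlapping genes therefore count as 1 observation.

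ARVCF, an armadillo-repeat protein of cell junctions, had 98.9 and 90.5 FPKM with both drugs and 15.6 and 14.7 FPKM with dipyridamole alone (2.57 ± 0.09). CLU, the gene of the chaperone clusterin, was at 20.8 and 25.5 FPKM with both drugs and at 4.32 and 2.48 FPKM with dipyridamole alone (2.48 ± 0.20). LRRC20 read 26.4 and 42.4 FPKM with both drugs and 3.93 and 7.24 FPKM with dipyridamole alone (2.44 ± 0.10). DUSP8, a phosphatase of the stress-activated MAP kinases, had 53.5 and 48.1 FPKM with both drugs, against 10.4 and 10.1 FPKM with dipyridamole alone (2.20 ± 0.14). In each of these genes both libraries with both drugs lay above both libraries with dipyridamole alone.

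Long non-coding transcripts were also among the 12 largest rises. LINC01583 had 49.2 and 31 FPKM with both drugs and 7.86 and 6.29 FPKM with dipyridamole alone (2.32 ± 0.12). CHILL1 was at 13.3 and 17.3 FPKM with both drugs and at 0.457 and 0.926 FPKM with dipyridamole alone (3.27 ± 0.21), on at most 133 reads per library. AL499627.1 had 10.6 and 7.62 FPKM with both drugs and 0.422 and 0.282 FPKM with dipyridamole alone (2.89 ± 0.20). The remaining genes of that set were NEURL3 (2.46), ANKRD2 (2.37) and DTX4 (2.32), the last of which encodes a ubiquitin ligase of the Deltex family. The adjusted p-values of the 12 rises ran from 9.43e-05 to 0.00168, and each call was kept with any single library left out and with size factors.

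**Figure D2:**
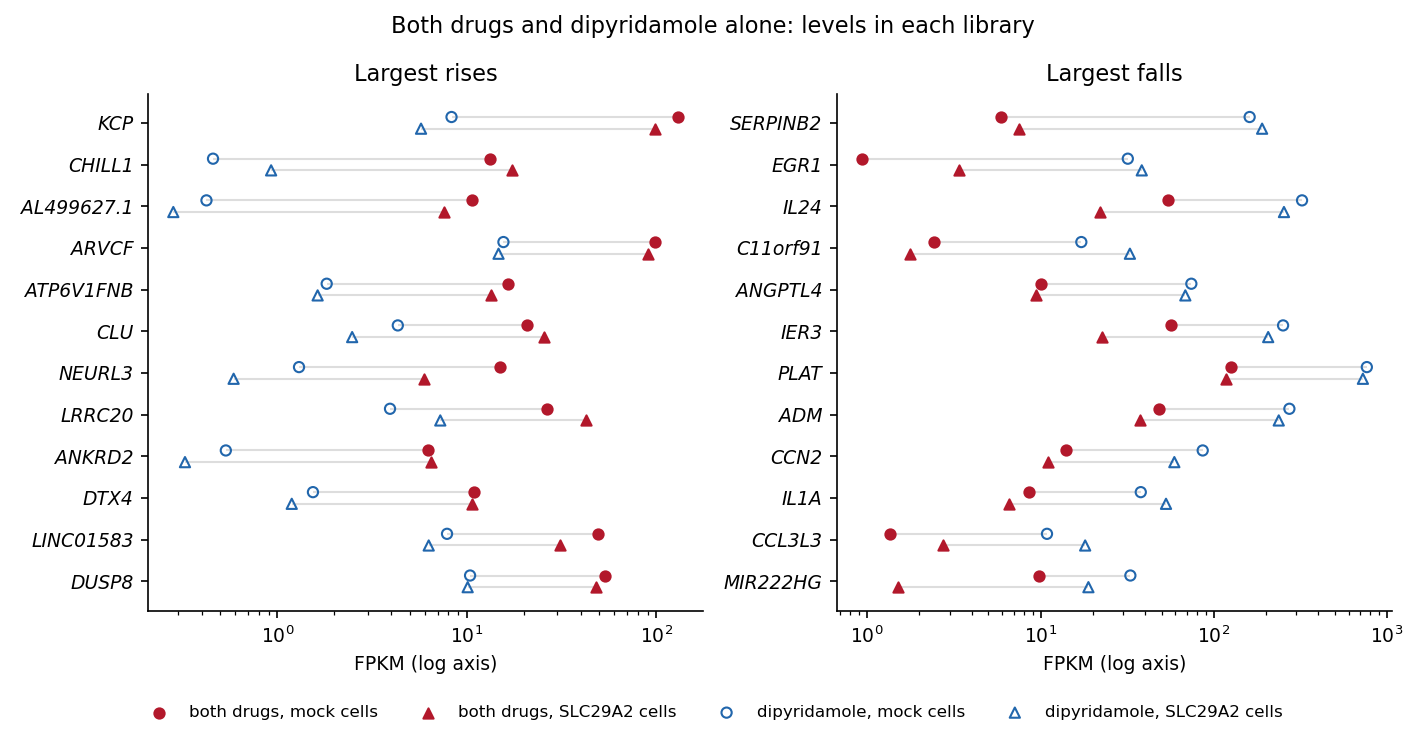
FPKM (log axis) of the 12 largest rises and the 12 largest falls, with filled red symbols for both drugs and open blue symbols for dipyridamole alone, circles for mock cells and triangles for SLC29A2 cells; each symbol is 1 library and the grey line joins the libraries of a cell type. In all 24 genes the 2 red symbols lie on the same side of both blue symbols, with KCP at 130 and 98.4 FPKM against 8.3 and 5.73 FPKM and SERPINB2 at 5.89 and 7.55 FPKM against 161 and 190 FPKM. The genes were chosen as the largest called changes, which largely fixes this separation.

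For 4 of the groups described next, promoter sequence was available beside the values. The table of RefSeq promoters (GRCh38.p14) gives 300 bases around each gene start, and the 250 bases before the start were searched on both strands for 1 motif per group. The motifs were the CArG box, which binds serum response factor, for immediate-early genes; TGAGTCA, which binds AP-1, for cytokines; GAANNTTC, part of the heat shock element, for heat shock genes; and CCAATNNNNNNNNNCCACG, the endoplasmic reticulum stress element, for chaperones of that compartment. For each group the called member with the smallest p-value whose promoter held the motif is shown 5′ to 3′, with the motif in capitals. None of the capitalised motifs overlaps a match to another of the 4.
EGR1 (chr5:138465229-138465478, plus strand): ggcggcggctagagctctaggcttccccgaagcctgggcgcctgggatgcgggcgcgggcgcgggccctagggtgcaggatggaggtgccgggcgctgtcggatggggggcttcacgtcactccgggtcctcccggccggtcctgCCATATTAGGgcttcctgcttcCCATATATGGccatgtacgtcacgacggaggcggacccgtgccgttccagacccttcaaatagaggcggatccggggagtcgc
CXCL8 (chr4:73740319-73740568, plus strand): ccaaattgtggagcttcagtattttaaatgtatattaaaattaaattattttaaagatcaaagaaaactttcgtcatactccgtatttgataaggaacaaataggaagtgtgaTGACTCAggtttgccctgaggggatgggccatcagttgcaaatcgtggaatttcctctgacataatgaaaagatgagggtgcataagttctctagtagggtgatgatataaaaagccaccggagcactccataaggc
HSPA1B (chr6:31827488-31827737, plus strand): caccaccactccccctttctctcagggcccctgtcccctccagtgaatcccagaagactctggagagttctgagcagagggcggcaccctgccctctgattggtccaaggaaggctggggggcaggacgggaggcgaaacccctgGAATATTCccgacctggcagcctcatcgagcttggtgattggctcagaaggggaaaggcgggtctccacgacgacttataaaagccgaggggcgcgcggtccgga
HSPA5 (chr9:125241344-125241593, minus strand): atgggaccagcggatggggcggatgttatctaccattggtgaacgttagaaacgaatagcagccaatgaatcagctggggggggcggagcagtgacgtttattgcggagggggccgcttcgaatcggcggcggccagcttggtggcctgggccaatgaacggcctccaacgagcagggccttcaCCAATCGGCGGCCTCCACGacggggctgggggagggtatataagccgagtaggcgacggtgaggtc

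EGR1 holds 2 CArG boxes, and the other 3 promoters hold 1 match each, that of CXCL8 being the reverse complement of the motif as written above. Of all 35116 promoters in the table, 1.16% held a CArG box, 4.2% the AP-1 motif, 5.78% the heat shock motif and 0.074% the stress element. Among group members with a promoter in the table, 2 of 10 immediate-early genes held a CArG box, 3 of 9 cytokine genes the AP-1 motif, 10 of 13 heat shock genes the heat shock motif and 7 of 19 chaperone genes the stress element. Among called members with a promoter in the table, 1 of 5, 2 of 7, 5 of 7 and 2 of 7 held the motif, in the same order. HSPA8, HSP90AB1 and HSPD1, which did not pass, also held the heat shock motif. A match is a run of letters and was not tested as a binding site, nor was its link to the response tested.

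Immediate-early genes of growth-factor signalling mostly fell or did not pass. Of 14 that passed the filter on low values, out of 16 listed, 6 fell and 1 rose, with a median log2 difference of -0.49 against 0.15 over all genes. Of all tested genes 24.4% rose and 8.8% fell, which is the background for this and every later group on the deposited scale. Counts under another setting have another background. Of 14190 genes 1738 rose and 2215 fell with size factors. With cell type and the 4 treatments as model terms 1192 rose and 404 fell, and with no cell type term 1304 and 452. With no filter on low values 1269 of 31551 genes rose and 461 fell. Besides EGR1 and IER3, the AP-1 subunit gene FOS was at 1.33 and 0.969 FPKM with both drugs and at 5.75 and 7.65 FPKM with dipyridamole alone (-1.83 ± 0.22; limma adjusted p = 0.00316). FOSL1, a second AP-1 subunit and a far more abundant message, had 201 and 215 FPKM with both drugs, against 372 and 588 FPKM with dipyridamole alone (-1.17 ± 0.14). IER2 (-1.15) and JUNB (-1.14) also fell.

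Members of the same family did not move together. JUN rose, with 265 and 286 FPKM with both drugs and 180 and 211 FPKM with dipyridamole alone (0.50 ± 0.09; limma adjusted p = 0.00898). JUND (0.13), FOSL2 (0.11), KLF6 (0.02) and KLF10 (0.00) did not pass, nor did MYC, at 147 and 105 FPKM with both drugs and 154 and 190 FPKM with dipyridamole alone. The gene of serum response factor itself, SRF, was at 17.6 and 20.8 FPKM with both drugs and 20 and 25.5 FPKM with dipyridamole alone, which did not pass. EGR2 and EGR3 were at or below 0.156 FPKM in these libraries and were not tested. With size factors 9 members fell and 1 rose, and without either SLC29A2 library of the comparison 6 fell and 2 rose.

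Feedback inhibitors and other outputs of ERK mostly fell. Of 19 tested members, out of 20 listed, 13 fell and 1 rose, and the median log2 difference was -0.59. DUSP6, a phosphatase that removes phosphate from ERK, had 3.92 and 3.59 FPKM with both drugs and 18.2 and 16.1 FPKM with dipyridamole alone (-1.93 ± 0.12; limma adjusted p = 0.00063). SPRY4, an inhibitor of receptor tyrosine kinase signalling, was at 26.5 and 23.5 FPKM with both drugs, against 71 and 80.9 FPKM with dipyridamole alone (-1.57 ± 0.11). SPRED3, of a related inhibitor family, had 11.3 and 10.7 FPKM with both drugs and 37.3 and 32.8 FPKM with dipyridamole alone (-1.59 ± 0.10). In all 3 genes the levels of the 2 cell types were close within each treatment.

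Ligands of the EGF receptor family belonged to the same group. EREG, the epiregulin gene, read 3.23 and 2.93 FPKM with both drugs and 12.7 and 11.5 FPKM with dipyridamole alone (-1.68 ± 0.12; limma adjusted p = 0.000939). TGFA did not pass, at 11 and 7.52 FPKM with both drugs and 11.8 and 8.65 FPKM with dipyridamole alone. Among regulators with other roles, CCND1, the cyclin D1 gene, had 207 and 216 FPKM with both drugs, against 337 and 385 FPKM with dipyridamole alone (-0.76 ± 0.10). EPHA2, a receptor tyrosine kinase gene, was at 496 and 565 FPKM with both drugs and at 751 and 845 FPKM with dipyridamole alone (-0.59 ± 0.09). SPRED2 (0.12), ETV1 (-0.10) and DUSP4 (-0.47) did not pass. The single rise, of SPRED1, was lost when any 1 library without dipyridamole was left out, and 8 members fell in a model with no cell type term and 8 with no filter on low values.

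Of the kinases that sorafenib binds, 1 passed the test. Of 13 listed, 7 passed the filter, and KDR, FLT1, FLT3, FLT4, RET and PDGFRA stayed at or below 0.314 FPKM in the 4 libraries. BRAF had 10.6 and 8.92 FPKM with both drugs and 9.75 and 7.35 FPKM with dipyridamole alone, which did not pass. FGFR1 was the most abundant, at 248 and 218 FPKM with both drugs and 166 and 179 FPKM with dipyridamole alone (0.43 ± 0.10; limma adjusted p = 0.0187). With size factors FGFR1 was not called (limma adjusted p = 0.0847), 0 members rose and 1 fell, so no direction is given for the group. PDGFRB had a larger difference than FGFR1 that did not pass (0.56 ± 0.21; limma adjusted p = 0.0869).

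Genes of plasminogen activation and coagulation fell as a group. Of 15 tested members 10 fell and 1 rose, with a median log2 difference of -0.79, where 8.8% of all genes fell. On the activating side, PLAU, the urokinase gene, had 121 and 80.5 FPKM with both drugs and 227 and 201 FPKM with dipyridamole alone (-1.11 ± 0.11; limma adjusted p = 0.00203). Its receptor gene PLAUR was at 162 and 162 FPKM with both drugs, against 395 and 371 FPKM with dipyridamole alone (-1.23 ± 0.10). Activators and their receptor thus fell together with the inhibitors SERPINB2 and SERPINE2. SERPINE2, which encodes protease nexin, had 68 and 65.5 FPKM with both drugs and 148 and 148 FPKM with dipyridamole alone (-1.14 ± 0.08).

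On the coagulation side, F3, the tissue factor gene that starts the cascade, was at 20 and 10.2 FPKM with both drugs and at 89.6 and 41.5 FPKM with dipyridamole alone (-2.01 ± 0.09; limma adjusted p = 0.000234). TFPI, its inhibitor, had 25 and 13.3 FPKM with both drugs and 65.7 and 41.4 FPKM with dipyridamole alone (-1.46 ± 0.09). Both were lower in SLC29A2 cells than in mock cells within each treatment. For F3 the higher value under both drugs, 20 FPKM, was still below the lower dipyridamole-alone value, 41.5 FPKM. For TFPI these values were 25 and 41.4 FPKM. PROCR (-0.74) and THBD (-0.71), genes of the protein C pathway, fell as well. ANXA2 and S100A10, which form a plasminogen receptor, did not pass, with ANXA2 at 2771 and 3249 FPKM with both drugs and 2948 and 3944 FPKM with dipyridamole alone. Size factors left 10 falls and 1 rise. The single rise, of the protease-activated receptor gene F2RL1, rested on at most 47 reads per library and lost its call in 4 of the 8 omissions of a single library. When either mock library of the comparison was left out, 12 members fell and 0 rose.

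Cytokine and chemokine genes had the lowest median of the groups, at -1.72. Of 17 listed, 10 passed the filter, and 7 of those fell and 0 rose, where 8.8% of all genes fell. CXCL8, the interleukin-8 gene, was at 8.94 and 5.63 FPKM with both drugs and at 46.9 and 32.1 FPKM with dipyridamole alone (-2.29 ± 0.10; limma adjusted p = 0.000202). IL1A had 8.59 and 6.54 FPKM with both drugs, against 37.9 and 53 FPKM with dipyridamole alone (-2.43 ± 0.19). IL6 read 4.36 and 2.82 FPKM with both drugs and 19.2 and 10.7 FPKM with dipyridamole alone (-1.77 ± 0.14). Together with IL24 these were the 4 members with the smallest p-values, and in none of them did the treatments overlap.

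The CXC chemokines beside CXCL8 were less uniform between cell types. CXCL1 had 22.2 and 8.63 FPKM with both drugs and 44 and 60.9 FPKM with dipyridamole alone (-1.82 ± 0.35; limma adjusted p = 0.0118). CXCL2 was at 66.6 and 19.5 FPKM with both drugs and at 71.3 and 73.6 FPKM with dipyridamole alone, and did not pass (-0.98 ± 0.39; 0.0996). In mock cells CXCL2 was nearly level, and the difference came from SLC29A2 cells. LIF, a cytokine of the IL6 family, did not pass at 39.9 and 24.9 FPKM with both drugs and 41.8 and 29.8 FPKM with dipyridamole alone. CSF3 was under the filter, at 0.238 and 0.0539 FPKM with both drugs and 1.26 and 2.14 FPKM with dipyridamole alone, and CXCL5 and CXCL12 were at 0.

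Secreted vascular factors split. Of 12 tested members, out of 15 listed, 6 fell and 2 rose, with a median log2 difference of -0.55 with dipyridamole and 0.01 without it. The median was -0.34 without either SLC29A2 library of the comparison, and 0.07 with no filter on low values, where 15 members were tested. ESM1, an endothelial proteoglycan gene, had 14 and 10.1 FPKM with both drugs and 53.4 and 55.8 FPKM with dipyridamole alone (-2.11 ± 0.13; limma adjusted p = 0.00063). STC1, the stanniocalcin gene, was at 2.8 and 1.21 FPKM with both drugs and 12.1 and 8.93 FPKM with dipyridamole alone (-1.98 ± 0.19). VEGFC, the lymphatic growth factor gene, was at 18.1 and 11.5 FPKM with both drugs and at 30.3 and 26.1 FPKM with dipyridamole alone (-0.92 ± 0.12). VEGFA itself did not pass, at 142 and 98.7 FPKM with both drugs and 139 and 132 FPKM with dipyridamole alone, nor did VEGFB, PGF or PDGFA. The rises, of FGF2 and PDGFC, were not called with size factors (0.145 and 0.362). The 10 endothelial markers summed to 43.3 and 52 FPKM with both drugs and 72.6 and 80.6 FPKM with dipyridamole alone, almost all of it ENG. Of these markers 2 were tested, ENG and TIE1, and both fell. VWF, under the filter, went the other way, at 1.54 and 1.66 FPKM with both drugs and 0.487 and 0.231 FPKM with dipyridamole alone. The part of these markers in the result was not tested.

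Among targets of TGF-β and of the Hippo pathway effector YAP, 6 of 16 tested members fell and 2 rose. CCN2, a matricellular protein gene, had 14 and 11 FPKM with both drugs and 86.3 and 59.2 FPKM with dipyridamole alone (-2.44 ± 0.10; limma adjusted p = 0.000188). CCN1, its relative, was at 734 and 542 FPKM with both drugs and at 2017 and 1806 FPKM with dipyridamole alone (-1.60 ± 0.12). THBS1, the thrombospondin gene, had 57.4 and 77.8 FPKM with both drugs and 206 and 148 FPKM with dipyridamole alone (-1.37 ± 0.19). TGFB2 went the other way, with 7.32 and 4.49 FPKM with both drugs and 2.91 and 1.59 FPKM with dipyridamole alone (1.09 ± 0.15). The YAP targets ANKRD1 (0.25), AMOTL2 (-0.13) and AJUBA (-0.09) did not pass, so the group had no common direction, and its median was -0.07. Rises numbered 6 when either SLC29A2 library of the comparison was left out, and falls numbered 2 with no filter on low values.

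Targets of p53 rose as a group on either scale. Of 23 tested members 16 rose and 1 fell, with a median log2 difference of 0.81 against 0.15 over all genes, and with size factors 13 rose and 1 fell. PHLDA3, an inhibitor of AKT, had 387 and 540 FPKM with both drugs and 155 and 185 FPKM with dipyridamole alone (1.43 ± 0.09; limma adjusted p = 0.000676). DDB2, a DNA damage sensor, was at 72.9 and 58.2 FPKM with both drugs, against 30.2 and 19.5 FPKM with dipyridamole alone (1.39 ± 0.10). BTG2, an antiproliferative gene, read 27.2 and 19.7 FPKM with both drugs and 10.1 and 8.05 FPKM with dipyridamole alone (1.27 ± 0.10). FDXR, the ferredoxin reductase gene, had 78.4 and 87.2 FPKM with both drugs and 33.8 and 45.3 FPKM with dipyridamole alone (1.06 ± 0.09). In these 4 genes both libraries with both drugs lay above both libraries with dipyridamole alone.

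The best-known members were not alike. MDM2, the ubiquitin ligase that limits p53, had 245 and 180 FPKM with both drugs and 138 and 82 FPKM with dipyridamole alone (0.98 ± 0.10; limma adjusted p = 0.00207). GADD45A, a growth-arrest gene, was at 2400 and 1802 FPKM with both drugs and at 1195 and 1172 FPKM with dipyridamole alone (0.81 ± 0.12). CDKN1A, the gene of the cell cycle inhibitor p21, did not pass, with 333 and 301 FPKM with both drugs and 273 and 311 FPKM with dipyridamole alone. TP53I3, FAS, TNFRSF10B, BAX and PMAIP1 did not pass either. The 1 fall was in PLK3 (-0.64), which lost its call in 2 of the 8 omissions of a single library. The number of rises was 12 to 17 over the alternatives run, the lowest with no filter on low values.

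Among apoptosis regulators, several of which are also p53 targets, 5 of 18 tested members rose and 1 fell, a share of rises near the 24.4% of all genes. BBC3, a pro-apoptotic member of the BCL2 family, had 75.3 and 61.2 FPKM with both drugs and 29.2 and 31.9 FPKM with dipyridamole alone (1.13 ± 0.12; limma adjusted p = 0.00238). XIAP, an inhibitor of caspases, was at 75 and 58.1 FPKM with both drugs and at 42 and 32.3 FPKM with dipyridamole alone (0.82 ± 0.08). BCL2L1, whose main product protects from apoptosis, had 100 and 93.1 FPKM with both drugs and 61.3 and 64.2 FPKM with dipyridamole alone (0.61 ± 0.09). MCL1 (-0.14) and BCL2L11 (0.15) did not pass. Falls numbered 4 without either mock library of the comparison and 3 with size factors.

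Heat shock genes rose or did not pass. Of 15 tested members 8 rose and 0 fell, with a median log2 difference of 0.42, where 24.4% of all genes rose. The inducible HSP70 gene HSPA1B was at 96.6 and 121 FPKM with both drugs and at 31 and 38.7 FPKM with dipyridamole alone (1.62 ± 0.12; limma adjusted p = 0.00103). Its near-identical neighbour HSPA1A had 111 and 122 FPKM with both drugs and 36.9 and 48.2 FPKM with dipyridamole alone (1.44 ± 0.16), and reads can be split between the 2 genes. DNAJB1, an HSP40 cochaperone, had 748 and 921 FPKM with both drugs, against 367 and 521 FPKM with dipyridamole alone (0.92 ± 0.10). HSPA6 was at 24.1 and 13.9 FPKM with both drugs and 3.48 and 7.24 FPKM with dipyridamole alone (1.67 ± 0.36; 0.0158).

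Constitutive members of the same families did not rise. HSPA8, the constitutive HSP70, had 646 and 883 FPKM with both drugs and 963 and 1016 FPKM with dipyridamole alone, which did not pass on the deposited scale and fell with size factors (limma adjusted p = 0.0389). HSP90AB1 had 552 and 642 FPKM with both drugs and 654 and 723 FPKM with dipyridamole alone, which also did not pass on the deposited scale and fell with size factors (0.0309). HSPD1 and HSPE1, the mitochondrial chaperonin pair, did not pass. With size factors 4 members rose and 2 fell; 4 rose with no cell type term, 5 with cell type and the 4 treatments as the model terms and 3 with no filter on low values.

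Of 20 tested endoplasmic reticulum chaperones and sensors 7 rose and 0 fell, with a median of 0.28, where 24.4% of all genes rose. HSPA5, the chaperone BiP, had 845 and 944 FPKM with both drugs and 569 and 554 FPKM with dipyridamole alone (0.67 ± 0.09; limma adjusted p = 0.00436). HYOU1, a chaperone of the same compartment, was at 325 and 382 FPKM with both drugs and at 244 and 227 FPKM with dipyridamole alone (0.58 ± 0.10). Other chaperones stayed level: CALR had 1978 and 2437 FPKM with both drugs and 2059 and 2040 FPKM with dipyridamole alone, and HSP90B1, PDIA3, PDIA6 and HERPUD1 did not pass. The count of rises depended on the setting. It was 2 with size factors, where 1 member fell, 1 with cell type and the 4 treatments as the model terms, 1 with no cell type term, 1 with no filter on low values and 3 without the mean-variance trend.

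Targets of ATF4, the transcription factor of the integrated stress response, moved both ways. Of 28 tested members 12 rose and 5 fell, with a median of 0.23 with dipyridamole and 0.61 without it. Over all genes 24.4% rose and 8.8% fell. ATF3 had 111 and 115 FPKM with both drugs and 34.7 and 30.6 FPKM with dipyridamole alone (1.77 ± 0.11; limma adjusted p = 0.000676). NUPR1, a stress-induced chromatin protein, read 8.97 and 8.27 FPKM with both drugs and 1.35 and 1.4 FPKM with dipyridamole alone (2.02 ± 0.17). TRIB3, a pseudokinase that ATF4 induces, had 232 and 279 FPKM with both drugs and 104 and 176 FPKM with dipyridamole alone (0.91 ± 0.12). PPP1R15A, the phosphatase subunit that ends the response, was at 535 and 513 FPKM with both drugs and at 342 and 274 FPKM with dipyridamole alone (0.77 ± 0.09). In each of them the treatments did not overlap.

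The members that fell included amino acid transporters. SLC7A5, the large neutral amino acid transporter gene, had 89 and 143 FPKM with both drugs and 254 and 362 FPKM with dipyridamole alone (-1.42 ± 0.08; limma adjusted p = 0.000519). SLC38A2 was at 371 and 289 FPKM with both drugs and at 703 and 501 FPKM with dipyridamole alone (-0.86 ± 0.09). SLC3A2, whose product pairs with that of SLC7A5, rose, with 1082 and 1029 FPKM with both drugs and 736 and 569 FPKM with dipyridamole alone (0.70 ± 0.10). GDF15, a stress cytokine, had 1217 and 909 FPKM with both drugs and 2236 and 1985 FPKM with dipyridamole alone (limma adjusted p = 0.00331). PHGDH, SHMT2 and MTHFD2, enzymes of serine and one-carbon metabolism, did not pass. Rises numbered 8 with size factors, 6 with cell type and the 4 treatments as model terms, 7 with no cell type term and 6 with no filter on low values.

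Cytosolic aminoacyl-tRNA synthetases, several of which ATF4 also induces, gave 7 rises and 0 falls among 20 tested members, where 24.4% of all genes rose. AARS1, for alanine, had 687 and 961 FPKM with both drugs and 360 and 464 FPKM with dipyridamole alone (0.99 ± 0.08; limma adjusted p = 0.00136). SARS1, for serine, was at 270 and 333 FPKM with both drugs and at 175 and 207 FPKM with dipyridamole alone (0.65 ± 0.08). The group's median of 0.15 equalled that of all genes and was -0.03 with size factors, and MARS1 (0.05), NARS1 (0.02) and IARS1 (0.00) did not pass. With size factors 3 members rose and 1 fell, and 4 rose when any 1 of the libraries without dipyridamole was left out. In the models with cell type and the 4 treatments, and with no cell type term, 3 rose each.

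Cell cycle genes differed between the 2 lists examined. Of 27 tested genes of DNA replication 7 fell and 2 rose, with a median of -0.15. RRM2, a subunit of ribonucleotide reductase, had 8.96 and 7.88 FPKM with both drugs and 22.9 and 20 FPKM with dipyridamole alone (-1.25 ± 0.08; limma adjusted p = 0.000728). UHRF1, which keeps DNA methylation through replication, was at 12.6 and 14.2 FPKM with both drugs and at 27.3 and 35.6 FPKM with dipyridamole alone (-1.16 ± 0.09). CDC6, a licensing factor, rose instead, with 18.9 and 22 FPKM with both drugs and 12.7 and 9.73 FPKM with dipyridamole alone (0.82 ± 0.14). PCNA, MCM2, MCM5 and MCM6 did not pass. Falls numbered 11 with size factors and 11 without either SLC29A2 library of the comparison, 4 with cell type and the 4 treatments as model terms, and rises numbered 6 without either mock library.

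Of 25 tested mitosis genes 5 rose and 0 fell, with a median of 0.12 that lay below that of all genes and a share of rises below their 24.4%. CCNB2, a mitotic cyclin gene, had 18.7 and 21.3 FPKM with both drugs and 11.4 and 13.8 FPKM with dipyridamole alone (0.63 ± 0.09; limma adjusted p = 0.00468). MKI67, the proliferation marker, did not pass, at 15.5 and 25.5 FPKM with both drugs and 19.1 and 17.4 FPKM with dipyridamole alone. The 2 cell types differed here, since 14 members rose when the comparison rested on SLC29A2 cells alone, and 5 rose and 4 fell when it rested on mock cells alone. With size factors 3 rose and 3 fell and the median was -0.06, and with cell type and the 4 treatments as model terms 0 rose and 0 fell by limma, so no direction is given for the group.

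Lipid synthesis genes moved both ways, with more falls than rises. Of 23 tested genes of cholesterol synthesis and uptake 7 fell and 2 rose. INSIG1, which restrains sterol synthesis, was at 14.3 and 8.82 FPKM with both drugs and at 39.7 and 31.2 FPKM with dipyridamole alone (-1.56 ± 0.15). SQLE, squalene epoxidase, had 25.5 and 30 FPKM with both drugs and 47.1 and 50.4 FPKM with dipyridamole alone (-0.79 ± 0.08). Falls numbered 3 with cell type and the 4 treatments as model terms and 3 with no cell type term, 4 with no filter on low values and 10 with size factors.

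Of 17 tested genes of fatty acid synthesis and desaturation 8 fell and 2 rose. FASN, fatty acid synthase, had 403 and 560 FPKM with both drugs and 749 and 914 FPKM with dipyridamole alone (-0.80 ± 0.10; limma adjusted p = 0.00315). The elongase gene ELOVL6 was at 10.4 and 9.19 FPKM with both drugs and at 24.2 and 20.4 FPKM with dipyridamole alone (-1.11 ± 0.09). SREBF1, the transcription factor gene of this pathway, had 290 and 291 FPKM with both drugs and 428 and 452 FPKM with dipyridamole alone (-0.60 ± 0.08). ACACA, acetyl-CoA carboxylase, did not pass (-0.01). Falls numbered 5 with cell type and the 4 treatments as model terms and 5 with no cell type term, and rises 1 when any library without dipyridamole was left out.

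All 13 protein-coding transcripts of the mitochondrial genome fell, with a median of -1.16. MT-CO2, a subunit of cytochrome oxidase, had 2037 and 2146 FPKM with both drugs and 8099 and 5200 FPKM with dipyridamole alone (-1.63 ± 0.19; limma adjusted p = 0.00286). MT-ND6, the 1 member encoded on the light strand, was at 31.6 and 37.4 FPKM with both drugs and at 151 and 114 FPKM with dipyridamole alone (-1.90 ± 0.15). MT-ND3 had 926 and 848 FPKM with both drugs and 3853 and 2117 FPKM with dipyridamole alone (-1.69 ± 0.18). The fall was larger in mock cells, whose library with dipyridamole alone had the highest mitochondrial share of the 8. All 13 fell with size factors, 12 without either mock library and 3 with no filter on low values. Rescaling after leaving these genes out moved the median of all genes to 0.126.

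In glycolysis and hypoxia 4 of 21 tested members rose and 3 fell, and the median was 0.03. Over all genes 24.4% rose and 8.8% fell. LDHA, lactate dehydrogenase, had 292 and 307 FPKM with both drugs and 657 and 648 FPKM with dipyridamole alone (-1.12 ± 0.09; limma adjusted p = 0.00136). SLC2A1, the glucose transporter gene, was at 107 and 128 FPKM with both drugs and at 190 and 164 FPKM with dipyridamole alone (-0.58 ± 0.12). PFKP, a phosphofructokinase, rose, with 633 and 967 FPKM with both drugs and 426 and 550 FPKM with dipyridamole alone (0.69 ± 0.10). With size factors 1 rose and the median was -0.15, with cell type and the 4 treatments as model terms 0 rose and 2 fell, and falls numbered 5 without either SLC29A2 library of the comparison.

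Interferon-stimulated genes gave 6 rises and 0 falls among 19 tested members, where 24.4% of all genes rose, with a median of 0.30 with dipyridamole and 0.42 without it. UBA7, the activating enzyme for ISG15, had 8.89 and 7.22 FPKM with both drugs and 2.21 and 1.72 FPKM with dipyridamole alone (1.61 ± 0.15; limma adjusted p = 0.00159). ISG15 itself was at 25.7 and 24.1 FPKM with both drugs and at 10.3 and 13.1 FPKM with dipyridamole alone (1.04 ± 0.16). OAS3 (0.71), IFIH1 (0.78), IRF1 (1.18) and MX1 (1.11) also rose, while IFIT1, IFIT2 and IFIT3 did not pass. With size factors 6 rose and 2 fell, and 3 rose with no filter on low values. In antigen presentation by MHC class I, 5 of 14 tested members rose and 2 fell, with a median of -0.15, or 0.17 without either SLC29A2 library of the comparison. The immunoproteasome subunit gene PSMB9 was at 27.1 and 32.3 FPKM with both drugs and at 5.57 and 7.75 FPKM with dipyridamole alone (2.01 ± 0.10; limma adjusted p = 0.000304), and TAP1, a subunit of the peptide transporter, at 86.4 and 101 FPKM and at 49.6 and 52.8 FPKM (0.86 ± 0.08). The class I heavy chain genes HLA-B and HLA-C, which are alike in sequence, did not pass on the deposited scale. HLA-B fell with size factors (limma adjusted p = 0.0149), where 4 members rose and 5 fell, 3 rose with cell type and the 4 treatments as model terms, and no member fell when any library without dipyridamole was left out.

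Genes that bear on dipyridamole itself were mixed. Of 13 tested genes of nucleoside transport and adenosine 3 rose and 3 fell, with a median of 0.02, or -0.16 with size factors. That share of rises was near the 24.4% of all genes, of which 8.8% fell. SLC29A1, the other main equilibrative transporter and a target of dipyridamole, had 38.7 and 42 FPKM with both drugs and 77.2 and 64.9 FPKM with dipyridamole alone (-0.80 ± 0.12; limma adjusted p = 0.00582). NT5E, the ectoenzyme that makes adenosine outside the cell, was at 24.4 and 18.7 FPKM with both drugs and at 71.8 and 53.8 FPKM with dipyridamole alone (-1.50 ± 0.08). PNP, which breaks down inosine and guanosine, fell by 0.98 ± 0.09. DCK, deoxycytidine kinase, rose, with 15.7 and 11.1 FPKM with both drugs and 8.51 and 7.16 FPKM with dipyridamole alone (0.70 ± 0.11), as did the adenosine receptor gene ADORA1 (0.81). Of 9 tested targets of cAMP and CREB only DUSP1 passed, with a fall of 0.79 ± 0.08. Among 14 tested NRF2 targets 3 rose and 1 fell, shares near those of all genes. The fall was in TXNRD1, thioredoxin reductase, at 453 and 452 FPKM with both drugs and 838 and 849 FPKM with dipyridamole alone (-0.90 ± 0.08), beside a rise of OSGIN1 (1.03 ± 0.11). With size factors 1 NRF2 target rose and 3 fell and their median was -0.02, against 0.16 on the deposited scale.

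**Figure D3:**
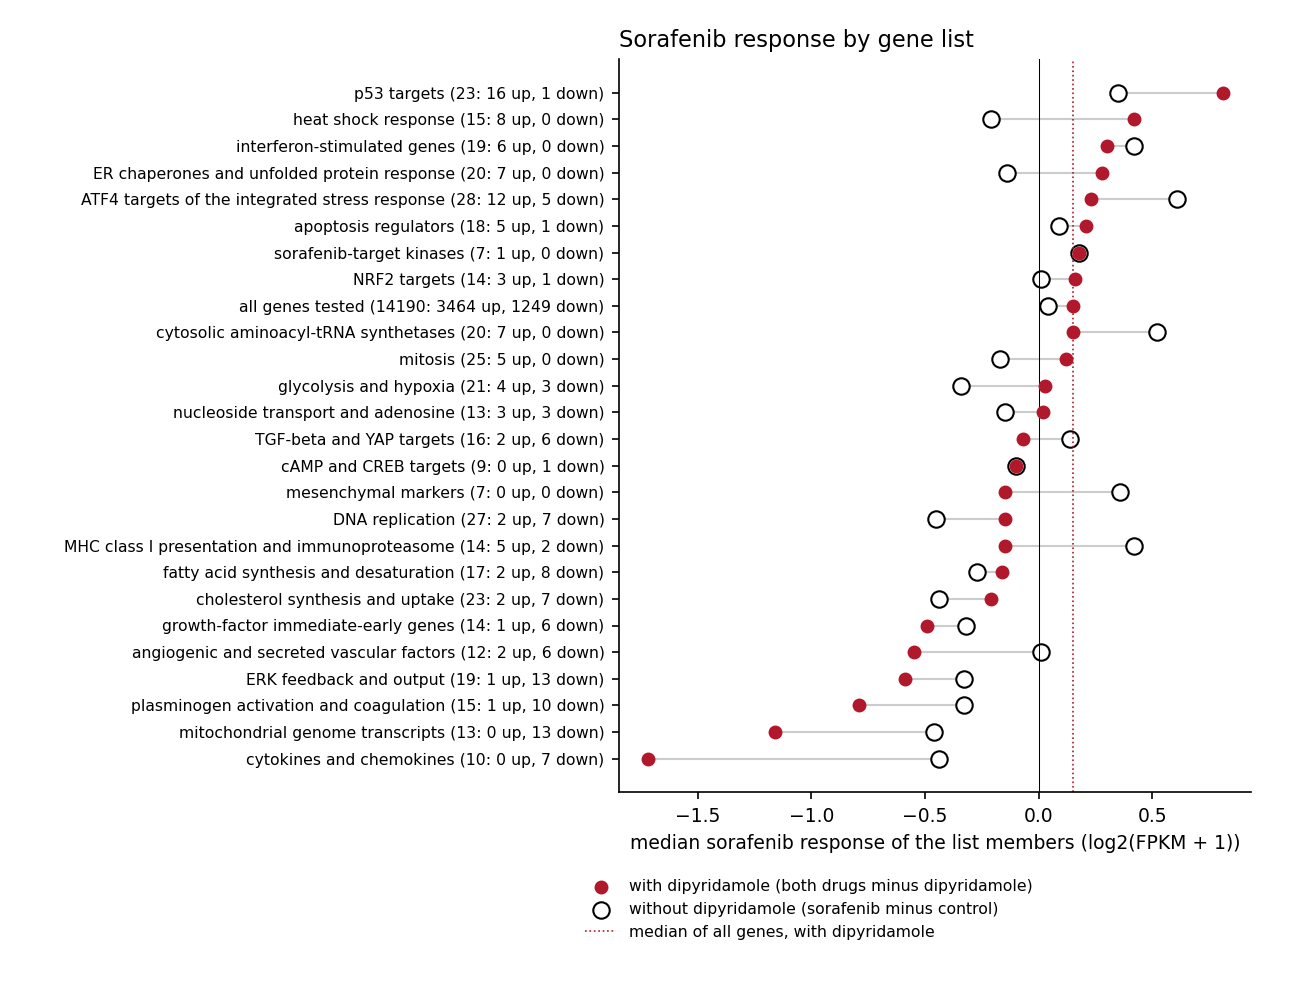
Median sorafenib response of the tested members of the gene lists with 7 or more such members, on the log2(FPKM + 1) scale, as filled red points with dipyridamole (both drugs minus dipyridamole alone) and open points without it (sorafenib minus control treatment); labels give the number tested and how many rose and fell with dipyridamole, and the dotted line is the median of all genes with dipyridamole, 0.15. Cytokines (-1.72) and mitochondrial transcripts (-1.16) had the lowest medians with dipyridamole and p53 targets (0.81) the highest.

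The response was then compared with that to sorafenib in the absence of dipyridamole, which used 4 other libraries. In mock cells 654 genes were at least 2-fold higher and 266 lower with dipyridamole present, against 205 and 123 without it. In SLC29A2 cells 541 were higher and 391 lower with it, against 181 and 124 without it. The standard deviation of log2 differences over genes was 0.513 and 0.537 with dipyridamole, against 0.385 and 0.369 without it. Genes were kept by their mean over the 4 dipyridamole libraries alone, which can favour larger counts and spreads with dipyridamole. Genes expressed mainly without it were left out, such as E2F2, at 5.7 and 6.3 FPKM with the control treatment and 2.81 and 4.45 FPKM with sorafenib. How much of the difference comes from this filter was not tested. Across genes the mean responses with and without dipyridamole correlated with a Pearson r of 0.435 and a Spearman rho of 0.411, on libraries that were not shared.

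The difference between the 2 responses was tested as the interaction of sorafenib with dipyridamole. With dipyridamole the response was higher for 462 genes, 3.26% of those tested, and lower for 318, 2.24%. Among the 462, 268 rose with dipyridamole and had a negative difference without it, and 143 rose by more than without it. Among the 318, 151 fell with dipyridamole and had a positive difference without it, and 98 fell by more. These counts were far less stable than those of the response itself. They were 5 and 8 with cell type and the 4 treatments as model terms, 8 and 13 with no cell type term, 8 and 8 without the mean-variance trend, 164 and 439 with size factors, and 0 and 0 by limma with no filter on low values. Among the 14190 genes an unadjusted limma p under 0.05 was found for 3856, and limma-voom on recovered read counts gave 930 and 545. Leaving out the mock or the SLC29A2 library with the control treatment gave 64 and 83 or 64 and 98 genes, and leaving out those with sorafenib gave 61 and 83 or 62 and 99. Leaving out a mock library with dipyridamole or both drugs gave 1636 and 1356 or 1608 and 1360, and leaving out the SLC29A2 library gave 1476 and 740 or 1422 and 736.

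**Figure D4:**
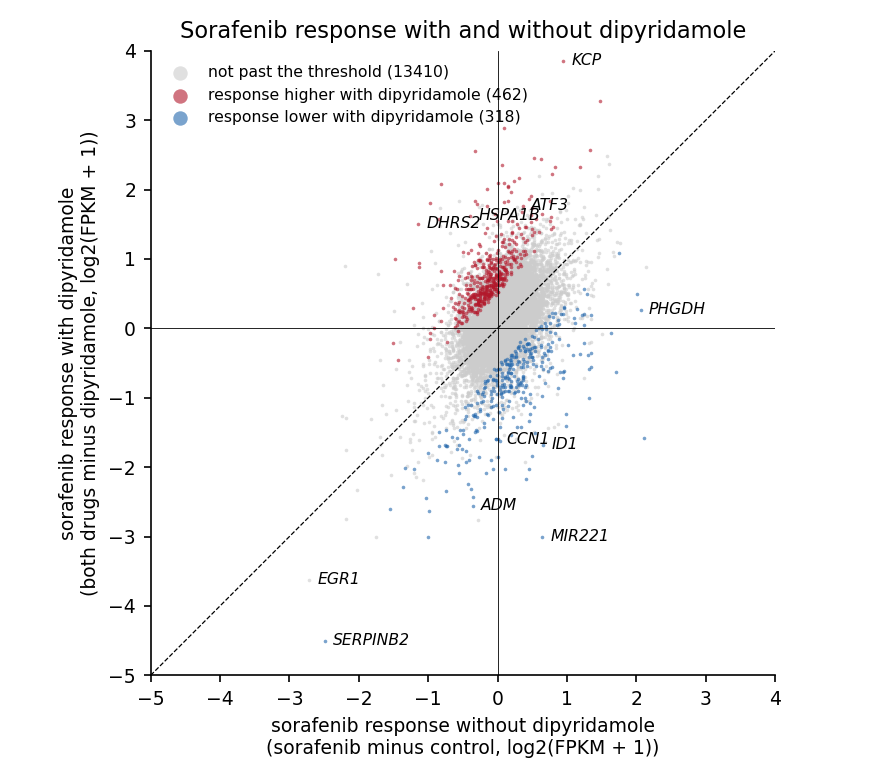
Sorafenib response with dipyridamole (vertical axis, both drugs minus dipyridamole alone) against the response without it (horizontal axis, sorafenib minus control treatment), as mean log2(FPKM + 1) differences over the 2 cell types; each point is a gene, red and blue points are the 462 and 318 genes past the interaction threshold, and the dashed line marks equal responses. KCP and HSPA1B lie above the line and ADM, CCN1 and ID1 below it, while EGR1 is not past the threshold.

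The genes with an interaction value printed below, up to DDIT4, kept their interaction call with each single library left out. All lost it with no filter on low values. Leaving out either library of a pair removes the same response, so the omissions are not independent checks. Apart from ADM and HSPA1B they also lost it with cell type and the 4 treatments as model terms. ADM had 48.2 and 37.3 FPKM with both drugs and 273 and 237 FPKM with dipyridamole alone, beside 225 and 246 FPKM with sorafenib and 286 and 318 FPKM with the control treatment. The log2 difference of -2.56 with dipyridamole stood against -0.36 without it (interaction -2.20 ± 0.11; limma adjusted p = 0.00493). In ADM no alternative other than the missing filter ended the call. SERPINB2 had 5.76 and 12.5 FPKM with sorafenib and 40.2 and 68.9 FPKM with the control treatment. Its log2 difference was -4.51 with dipyridamole and -2.49 without it (interaction -2.03 ± 0.14; 0.0051). CCN2 (interaction -1.41 ± 0.14; 0.0121) was a further example of a fall that was larger with dipyridamole. SPRED3 fell with dipyridamole and was nearly level without it, at -0.03 (interaction -1.56 ± 0.14; 0.0115).

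In other genes the responses differed in sign or one of them was small. VEGFC differed by -0.92 with dipyridamole, against 0.37 without it, where it had 25.5 and 28.3 FPKM with sorafenib and 21 and 20.1 FPKM with the control treatment (interaction -1.29 ± 0.18; limma adjusted p = 0.0247). THBD, the thrombomodulin gene, was at 6.91 and 6.43 FPKM with both drugs and 10.4 and 12.9 FPKM with dipyridamole alone, beside 8.23 and 8.82 FPKM with sorafenib and 3.72 and 4.21 FPKM with the control treatment. The sign of its response therefore differed, -0.71 with and 0.94 without dipyridamole (interaction -1.65 ± 0.19; 0.0177). ID1, a target of BMP signalling, was at 11.1 and 7.07 FPKM with both drugs and at 24.3 and 38.6 FPKM with dipyridamole alone, beside 49.7 and 67.8 FPKM with sorafenib and 29.1 and 45.5 FPKM with the control treatment (interaction -2.34 ± 0.37; 0.0318). SLC7A5 had 240 and 278 FPKM with sorafenib and 276 and 314 FPKM with the control treatment, a small difference beside its fall with dipyridamole (interaction -1.23 ± 0.12; 0.0121).

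In heat shock genes the response was higher with dipyridamole for 5 of 15 members. Of the 5, DNAJB1 and HSP90AA1 lost that call in 4 of the 8 omissions of a single library, and HSPH1 in 2. HSP90AA1 also lost it with size factors. HSPA1B differed by 1.62 with dipyridamole and by -0.40 without it, where it was at 19.2 and 26.8 FPKM with sorafenib and at 30.3 and 29.9 FPKM with the control treatment (interaction 2.01 ± 0.17; limma adjusted p = 0.0102). ATF3 read 25.1 and 26.4 FPKM with sorafenib and 17 and 23.1 FPKM with the control treatment (interaction 1.41 ± 0.16; 0.0181). DHRS2, a dehydrogenase gene, went opposite ways: 9.46 and 8.25 FPKM with both drugs and 2.89 and 2.1 FPKM with dipyridamole alone, beside 4.75 and 6.66 FPKM with sorafenib and 11.4 and 16.4 FPKM with the control treatment (interaction 2.65 ± 0.17; 0.00507). Mitosis genes, chaperones of the endoplasmic reticulum and glycolysis genes had 5, 4 and 4 members higher with dipyridamole and 0 lower, against 3.26% and 2.24% over all genes. Each of those 13 calls was lost in at least 2 of the 8 omissions of a single library.

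Targets of ATF4 gave the reverse, with 8 of 28 members lower in their response with dipyridamole and 1 higher. Of the 8, SLC38A2 and MTHFD2 lost that call in 4 of the 8 omissions of a single library, and GDF15 and SESN2 in 2. PHGDH, which starts serine synthesis, was at 83.3 and 123 FPKM with both drugs and at 73.5 and 96.5 FPKM with dipyridamole alone, a difference of 0.26 that did not pass. Without dipyridamole it had 122 and 94.7 FPKM with sorafenib and 33.3 and 18.8 FPKM with the control treatment, a difference of 2.06 (interaction -1.80 ± 0.17; limma adjusted p = 0.012). CHAC1, a glutathione-degrading enzyme, behaved alike, with 33.3 and 42.4 FPKM with both drugs and 27.7 and 54.9 FPKM with dipyridamole alone, beside 32.1 and 25.9 FPKM with sorafenib and 8.99 and 8.31 FPKM with the control treatment (interaction -1.68 ± 0.22; 0.022). In both genes the libraries with dipyridamole alone lay above those with the control treatment. DDIT4, a stress-induced inhibitor of mTOR signalling, had 28.3 and 39.4 FPKM with both drugs and 46.2 and 63.5 FPKM with dipyridamole alone, beside 28.5 and 18.6 FPKM with sorafenib and 17.4 and 12.8 FPKM with the control treatment (interaction -1.28 ± 0.13; 0.0132).

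**Figure D5:**
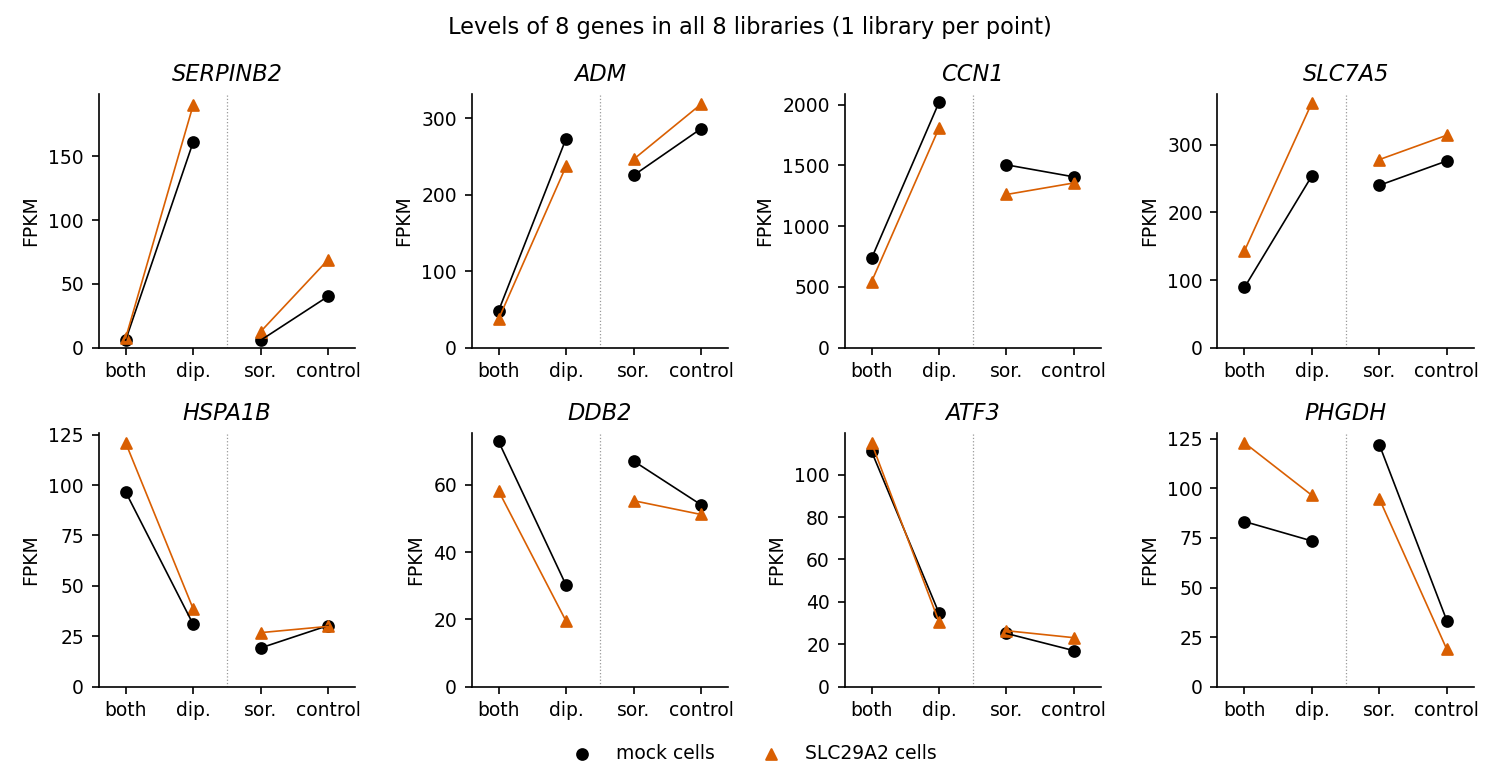
FPKM of 8 genes in all 8 libraries, with both drugs, dipyridamole alone (dip.), sorafenib alone (sor.) and the control treatment from left to right; circles are mock cells, triangles SLC29A2 cells, each point is 1 library, lines join the libraries that differ in sorafenib and the axes start at 0. ADM, CCN1 and SLC7A5 are lowest with both drugs, HSPA1B and ATF3 are highest with both drugs, and PHGDH is lowest with the control treatment.

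Several genes with large responses did not pass the interaction test. EGR1 differed by -3.63 with dipyridamole and by -2.72 without it, where it had 0.511 and 2.24 FPKM with sorafenib and 12.2 and 15.1 FPKM with the control treatment (interaction -0.91 ± 0.38; limma adjusted p = 0.185). PSMB9 was at 23.5 and 16.6 FPKM with sorafenib and at 7.96 and 5.58 FPKM with the control treatment (2.01 with and 1.44 without dipyridamole; limma interaction adjusted p = 0.0692). RRM2 differed by -1.25 with dipyridamole and -1.16 without it (0.649), although its level was 8.96 and 7.88 FPKM with both drugs and 59.4 and 63.2 FPKM with sorafenib alone. FASN differed by -0.80 with and -1.15 without dipyridamole (0.168). A p that misses the threshold with 1 library per condition does not show that these responses were equal.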

How the data were processed

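RNA from 8 samples of SK-Hep1 cells, 1 library per condition, was sequenced after poly(A) selection, per the labels. The authors deposited FPKM values per gene, with no step-by-step account in the sources used here. The genome build GRCh38.p12 and the tools HTSeq 0.6.1, TopHat2 2.0 and edgeR appear, without roles, per the submitters' processing notes. No dose, time or library strand is stated. Each table held 58302 genes after 8 lines without a gene identifier were dropped, and 58039 matched GENCODE release 29. A library held 14.07 to 16.69 M reads, and 1 read in a gene of 2 kb was worth 0.03 to 0.0355 FPKM.

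The 14190 genes that averaged 1 FPKM or more across the 4 dipyridamole libraries were tested with limma 3.58.1 (R 4.3.3) on log2(FPKM + 1), with a mean-variance trend, two-sided, at a Benjamini-Hochberg threshold of 0.05. The model held cell type, dipyridamole, sorafenib, cell type by dipyridamole and sorafenib by dipyridamole, which left 2 residual degrees of freedom. All 8 libraries entered, and the spread is the difference of the sorafenib response between cell types and not a spread between replicates. Genes were named by rule: the 12 called protein-coding or long non-coding genes with the largest change in each direction and at least 5 FPKM in both libraries of the higher side, the 5 largest interactions in each direction and up to 4 members per list with the smallest p. Further members were named for their role, after their values were seen. The gene lists and members were chosen with earlier results of these data known. Dividing FPKM by the worth of 1 read gave whole reads within 0.01 for 93.61% of values, and limma-voom was run on those reads as an alternative. Other alternatives were size factors, other model terms, other filters and pseudocounts, and leaving out each library. Promoter windows came from RefSeq, and figures were drawn with Python 3.11.15 and matplotlib 3.10.9. Some list members are not reported here.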

Additional observations from a re-analysis of the deposited data

Results flagged for a closer look

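The response to sorafenib with dipyridamole differed from that without it, by the limma interaction test, in 10 genes taken by the size of the difference. KCP stood at 130 and 98.4 FPKM with both drugs and 8.3 and 5.73 FPKM with dipyridamole alone, beside 2.74 and 2.95 FPKM with sorafenib and 0.718 and 1.35 FPKM with the control treatment, an interaction of 2.92 (limma adjusted p = 0.00507). The overlapping ATP6V1FNB gave 2.87. AL499627.1 gave 2.80, with every library without dipyridamole at or below 0.117 FPKM. DHRS2, whose response had opposite signs, gave 2.65, and ID1, likewise of opposite sign, gave -2.34.

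The remaining 5 were small RNA loci with few reads. MIR8078 gave 2.78 on at most 14 reads per library, and MIR4312 gave -3.70 on at most 7 reads. MIR221, which lies within MIR222HG, gave -3.65 on at most 44 reads, and SNORD46 gave -2.58 on at most 40. MIR503 gave -2.47 on at most 335 reads. FPKM of such short genes is large for each read, and poly(A) selection does not capture mature microRNAs, so these values describe reads at the loci only. All 10 calls were kept with each single library left out and lost with no filter on low values. KCP, DHRS2, ID1, MIR221, MIR503 and MIR4312 also lost theirs with cell type and the 4 treatments as model terms. Without the mean-variance trend ID1, MIR221, MIR503 and MIR4312 lost it, and with no cell type term these and MIR8078. AL499627.1 and MIR4312 lost it with a pseudocount of 0.1, and MIR8078 with voom. ATP6V1FNB and SNORD46 lost theirs only with no filter.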

How the results depend on the processing

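Counts of genes that rose and fell with sorafenib added to dipyridamole were 1192 and 404 with cell type and the 4 treatments as model terms, 1304 and 452 with no cell type term, 1738 and 2215 with size factors, and 1269 and 461 with no filter on low values, against 3464 and 1249. The interaction counts, 462 higher and 318 lower, were 5 and 8, 8 and 13, 164 and 439, and 0 and 0 under the same 4 settings by limma, 8 and 8 without the mean-variance trend, and 930 and 545 by voom on recovered reads. Leaving out a single library gave 61 to 1636 higher and 83 to 1360 lower. The balance of calls turned to falls with size factors. No named gene that was called changed direction. Some named genes that were not called did, such as JUND, at 0.13 on the deposited scale and -0.06 with size factors. List medians near 0 changed sign, as did that of the vascular factors with no filter (0.07, against -0.55). Of 129 named genes, 104 kept their side of the threshold with no filter and 109 in each of the other 2 models; of 90 genes named for the interaction, 6 kept it with cell type and the 4 treatments, 8 with no cell type term, 8 without the trend and 0 with no filter. The labels give no shared replicate numbers; the libraries were paired by cell type in the model, and the fit with no cell type term is its unpaired form. With 1 library per condition the spread between replicates was not measured. Genes near 0.03 FPKM rest on about 1 read.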
